A study of Homo sapiens with 4 samples.

Results

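Expression of 10 genes that act in cell survival downstream of tumour necrosis factor (TNF) receptors was followed in the human line A549, which is established from an adenocarcinoma of the lung. They were BIRC2, BIRC3, XIAP, TRAF1, TRAF2, TRAF3, TNFAIP3, TNIP1, TNIP2 and CFLAR, chosen by gene symbol as 10 of the 34608 genes listed in the count files. The files list 74 transcript sequences for them among 119207 in all. Cells of the dex group were treated with 100 nM dexamethasone, a synthetic hormone that acts through the glucocorticoid receptor, and cells of the etoh group with 0.02% ethanol as vehicle, each for 3 h. RNA was sequenced from 2 libraries per group, with 9764159 to 11887526 reads aligned to named transcripts in each. No genotype change or other treatment is given for either group, and all 4 libraries came from this 1 line. Whether the 2 libraries of a group stem from different cultures is not in the labels. P-values therefore weigh the difference between groups only against the spread of these libraries, estimated with help from all tested genes. That spread may be technical. Because RNA was taken from whole cultures, a change in RNA per cell and a change in the share of cells that hold it cannot be told apart.

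An engaged TNF receptor gathers adaptor proteins of the TRAF family and the cellular inhibitor-of-apoptosis (IAP) proteins encoded by BIRC2 and BIRC3, which are ubiquitin ligases. The ubiquitin chains they build recruit kinases that switch on the transcription factor NF-kB. TNFAIP3, also called A20, edits and removes those chains with the help of the ubiquitin-binding proteins TNIP1 and TNIP2, and CFLAR blocks caspase-8 at the receptor. BIRC3, TRAF1 and TNFAIP3 are themselves well-known NF-kB target genes, so they belong to a feedback loop. In resting cells TRAF2, TRAF3 and the IAP ligases hold the kinase NIK, encoded by MAP3K14, at a low level.

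Promoter sequence is shown for BIRC3 and TNFAIP3, which rose most of the genes that passed the test, for TRAF3 and TNIP1, which hold the same sequence motif, and for BIRC2, the neighbour and close relative of BIRC3. The search covered the 250 bases before each transcription start of RefSeq (GRCh38.p14), and all 10 genes had at least 1 such window. Sequences run 5' to 3' on the gene's own strand, and capitals mark matches on either strand to GGGNNTTTCC, a form of the kappa-B site that NF-kB binds, which was chosen after the members' promoters had been read. For BIRC3 (chr11:102317234-102317449, plus strand) and BIRC2 (chr11:102346964-102347210, plus strand) the window is shown up to the first base that GENCODE 29 places in an exon of the gene. For TRAF3 (chr14:102777199-102777448, plus strand) the whole window of 250 bases is shown, as none of it lies in such an exon. In TNFAIP3 (chr6:137867188-137867217, plus strand) and TNIP1 (chr5:151081057-151081086, minus strand) the matches lie in an exon of an alternative transcript, and only the 30 bases around them are shown.
BIRC3: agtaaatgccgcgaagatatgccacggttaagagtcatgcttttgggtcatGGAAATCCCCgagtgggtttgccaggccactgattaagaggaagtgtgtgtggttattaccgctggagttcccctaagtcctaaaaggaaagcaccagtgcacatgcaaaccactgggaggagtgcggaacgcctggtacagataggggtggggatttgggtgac
TNFAIP3: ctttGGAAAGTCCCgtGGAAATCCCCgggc
TNIP1: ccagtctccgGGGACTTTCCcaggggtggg
TRAF3: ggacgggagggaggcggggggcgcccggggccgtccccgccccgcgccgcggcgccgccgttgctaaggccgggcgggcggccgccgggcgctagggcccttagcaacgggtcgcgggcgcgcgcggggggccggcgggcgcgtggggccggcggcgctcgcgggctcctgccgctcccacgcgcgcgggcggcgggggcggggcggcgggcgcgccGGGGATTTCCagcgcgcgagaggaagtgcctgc
BIRC2: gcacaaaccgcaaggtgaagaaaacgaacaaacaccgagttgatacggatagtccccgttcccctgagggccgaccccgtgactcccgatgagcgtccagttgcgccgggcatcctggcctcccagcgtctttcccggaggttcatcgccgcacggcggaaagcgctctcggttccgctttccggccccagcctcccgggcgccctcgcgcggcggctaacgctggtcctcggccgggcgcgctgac

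The motif was found for 4 of the 10 genes, BIRC3, TRAF3, TNFAIP3 and TNIP1, and for 2.12% of the 27305 genes with windows of this length. As the form was chosen after the members' promoters had been read, these 2 shares cannot be weighed against each other. In BIRC3 the match began 199 bases before the start. TNFAIP3 held 2 separate matches, which began 67 and 55 bases before the start, and the nearer one, GGAAATCCCC, has the same letters as the match in BIRC3. TNIP1 held GGGACTTTCC, beginning 42 bases before 1 of its 2 starts, and TRAF3 held GGGGATTTCC, beginning 33 bases before its start. Read on the other strand, GGGGATTTCC is GGAAATCCCC, so BIRC3, TNFAIP3 and TRAF3 held the same site. In the same way GGGACTTTCC is GGAAAGTCCC, the farther match in TNFAIP3, so TNFAIP3 and TNIP1 shared that site. A form of the glucocorticoid response element, GNACANNNTGTNC, searched on both strands, was in no window of the 10 genes and in a window of 0.399% of all genes. With a share that low, the lack of a match in 10 genes says little, and sequence outside the windows was not searched. A match describes the letters of a window and no more. Of the 4 genes with the kappa-B form, BIRC3 and TNFAIP3 passed the test of expression, and TRAF3 and TNIP1 did not. CFLAR passed, and none of its 4 windows held the form. A role of the motif in expression was not tested.

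Of the 10 genes, BIRC3, TNFAIP3 and CFLAR rose after dexamethasone and none fell. All 10 were measured well enough to be tested, with 35 to 2103 reads per gene and library. The test was the quasi-likelihood test of edgeR, with p adjusted by Benjamini-Hochberg over all 14777 tested genes and a threshold of 0.05. It called 11.4% of those genes, 6.98% as higher and 4.42% as lower, and of the 10 genes it called 3 higher and 0 lower. With p left unadjusted, 5 of the 10 were higher and 0 lower at the threshold of 0.05, against 12.8% higher and 10.7% lower of all tested genes. DESeq2 called 2 of the 10 higher and 0 lower, against 4.72% and 2.80% of the 13917 genes to which it gave an adjusted p. The median log2 fold change of the 10 was 0.29, against -0.0026 for all tested genes. The 10 were chosen with earlier results of these data known, so comparisons with all tested genes are descriptive only. In 6 of the 10 genes every dex library lay above every etoh library, which held for 24.5% of all tested genes, and in 1, TRAF3, every dex library lay below, which held for 28.8%. Levels are given as CPM, the reads of all transcripts of a gene divided by the library's aligned reads and multiplied by 1000000. Group values are means ± SD (n = 2), and a positive log2 fold change, shown with its standard error (SE), means more in dex.

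**Figure D1:**
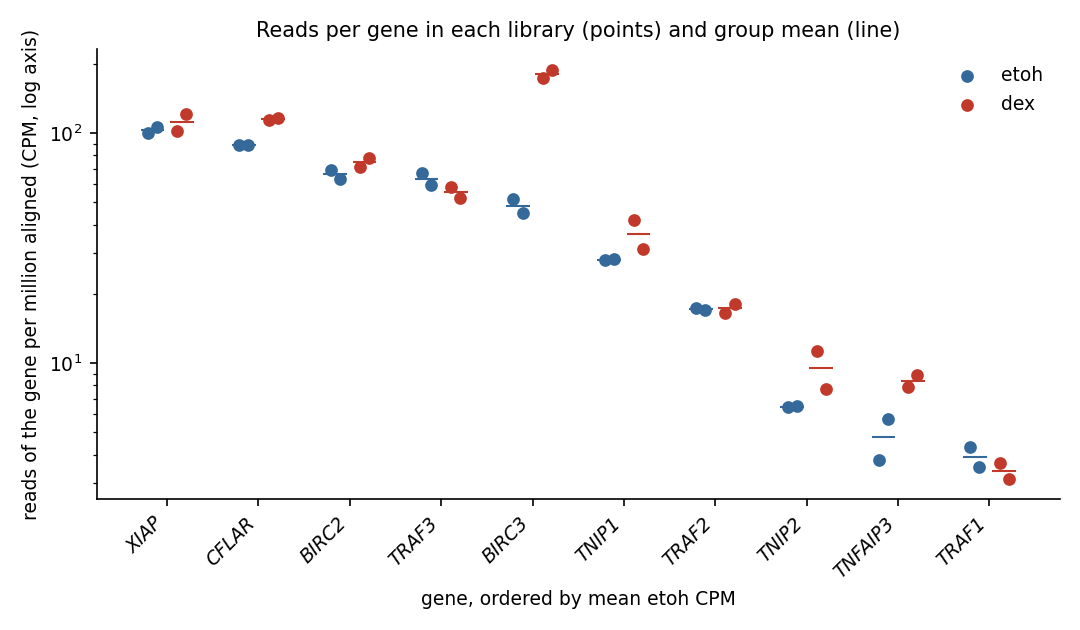
Level of each gene (CPM, log axis) in the 2 etoh libraries (blue) and the 2 dex libraries (red), with the group mean as a line and genes ordered by their mean in etoh. The dex points of BIRC3, at 174 and 189 CPM, stand far above its etoh points at 51.7 and 44.9 CPM, and no other gene of the 10 shows a gap of that size.

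BIRC3, which encodes the inducible cellular IAP, had 174 and 189 CPM in dex replicates 1 and 2 and 51.7 and 44.9 CPM in etoh replicates 1 and 2. Both dex libraries were high and both etoh libraries low, with no overlap. Mean levels of 181 ± 10.3 and 48.3 ± 4.81 CPM gave a log2 fold change of 1.93 (SE 0.11, 95% interval 1.70 to 2.16, adjusted p = 3.2e-11 by edgeR) or 3.81-fold. With each library left out in turn its log2 fold change lay between 1.82 and 2.05 and passed each time. By size it was number 111 among the 1031 genes called higher.

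BIRC2 encodes the other cellular IAP and lies next to BIRC3 on chromosome 11, 7.81 kb beyond its end. In GRCh38, BIRC3 runs from 102317450 to 102339403 and BIRC2 from 102347211 to 102378670, both on the plus strand. BIRC2 had 71.3 and 77.8 CPM in dex and 69.2 and 63.5 CPM in etoh. The dex libraries were a little above the etoh libraries, and the log2 fold change of 0.19 (SE 0.11) did not pass (adjusted p = 0.33 by edgeR), with a 95% interval of -0.04 to 0.42 that lies wholly below that of BIRC3. XIAP, an IAP that binds and blocks caspases directly and lies on chromosome X from 123859724 to 123913979, had 102 and 121 CPM in dex and 100.5 and 107 CPM in etoh. Its groups overlapped, and its log2 fold change was 0.13 (SE 0.11, 95% interval -0.10 to 0.35, adjusted p = 0.52 by edgeR).

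The proportions of the 3 IAP genes were compared next. Per transcript length, as RPKM (CPM per kilobase) summed over the transcripts of a gene, BIRC3 was at 10.1 ± 0.729 in etoh and 37.8 ± 2.24 in dex. BIRC2 was at 35.7 ± 2.90 in etoh and 40.3 ± 3.89 in dex, and XIAP at 16.9 ± 0.784 and 17.7 ± 1.45. The ratio of BIRC3 to BIRC2 on this scale was 0.282 and 0.285 in the etoh libraries and 0.964 and 0.915 in the dex libraries. That of BIRC3 to XIAP was 0.610 and 0.588 in etoh and 2.17 and 2.10 in dex. Both ratios were higher in both dex libraries, with an exact two-sided permutation p of 0.333, the smallest that 2 against 2 libraries allow. With reads divided by the length of each gene's most-read transcript alone, BIRC3 was again below BIRC2 in etoh, at 9.30 against 17.7 CPM per kilobase, and in dex it was above it, at 34.9 against 19.9. Which of the pair was the higher in dex depends on the length used.

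**Figure D2:**
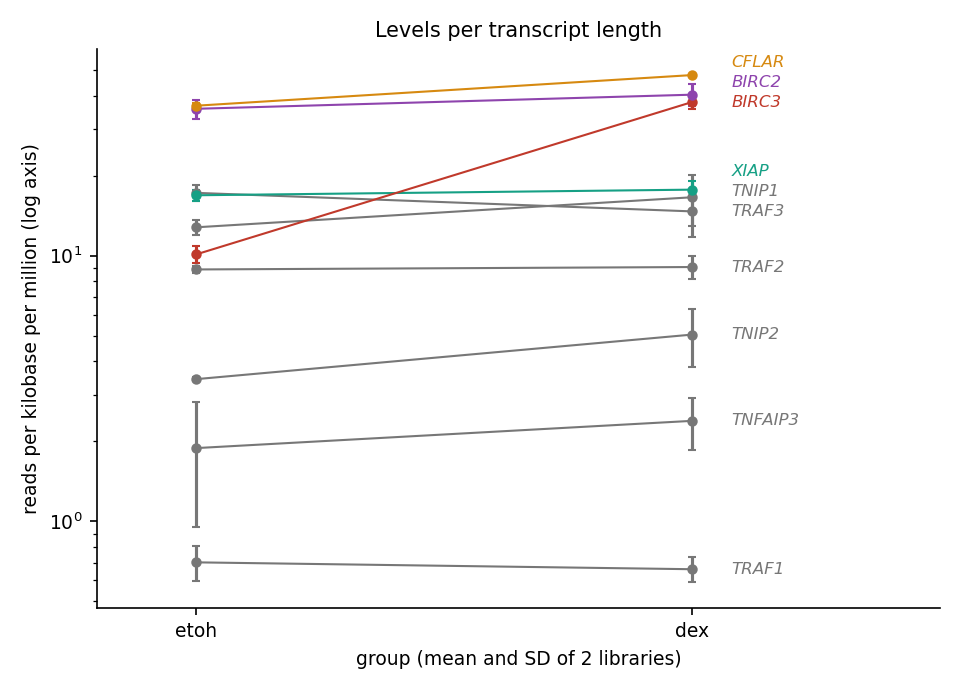
Level per transcript length (RPKM, log axis) of the 10 genes in etoh and dex, as mean and SD of 2 libraries joined by a line for each gene. The line of BIRC3 climbs from 10.1 to 37.8 and meets that of BIRC2, whereas the lines of XIAP and TRAF2 are nearly level.

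Ordered by level per length in etoh, CFLAR (36.6 ± 0.781) and BIRC2 were at the top and did not differ beyond their spread. TRAF3 (17.2 ± 1.21) and XIAP came next, also within their spread, then TNIP1 (12.8 ± 0.835), BIRC3 and TRAF2 (8.87 ± 0.249). TNIP2 (3.43 ± 0.0584), TNFAIP3 (1.89 ± 0.935) and TRAF1 (0.701 ± 0.105) were lowest. By summed RPKM, BIRC3 ranked 6 in etoh and 3 in dex, where its level lay within the spread of BIRC2. Per kilobase of the most-read transcript it ranked 3 in etoh and 1 in dex. The place of CFLAR rests on its 20 listed transcripts, many of them short. By its most-read transcript of 14672 bases it ranked 7 in etoh and 5 in dex.

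TNFAIP3 had 7.83 and 8.89 CPM in dex and 3.79 and 5.72 CPM in etoh. Both dex libraries were above both etoh libraries, and the etoh libraries differed widely from each other, with 37 and 68 reads. Per transcript length its groups overlapped, at 2.01 and 2.76 in dex and 1.23 and 2.55 in etoh. The means were 8.36 ± 0.745 and 4.75 ± 1.37 CPM, a log2 fold change of 0.82 (SE 0.23, 95% interval 0.33 to 1.30, adjusted p = 0.024 by edgeR). The call ended when etoh replicate 1 (0.58) or dex replicate 2 (0.73) was left out, and in DESeq2 (0.82, adjusted p = 0.15). The gene lies on chromosome 6 from 137867188 to 137883312, and 1 transcript, TNFAIP3-001, held 94.9% of its dex and 87.6% of its etoh reads. That transcript, which encodes the whole protein of 790 residues, rose by 0.92 on the log2 scale (SE 0.22, adjusted p = 0.0090 by edgeR over transcripts).

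The partners of A20 did not pass. TNIP1 had 41.7 and 31.4 CPM in dex and 28.1 and 28.3 CPM in etoh, so dex replicate 1 stood well above dex replicate 2, and both lay above etoh. Its log2 fold change was 0.39 (SE 0.14, 95% interval 0.10 to 0.68, adjusted p = 0.079 by edgeR). TNIP2 had 11.3 and 7.72 CPM in dex and 6.45 and 6.48 CPM in etoh, again with dex replicate 1 the higher, and a log2 fold change of 0.57 (SE 0.22, 95% interval 0.11 to 1.02, adjusted p = 0.11 by edgeR). Without dex replicate 2 both passed, at 0.59 (adjusted p = 0.0036) for TNIP1 and 0.83 (adjusted p = 0.012) for TNIP2. Without dex replicate 1 they were at 0.17 and 0.27 and did not pass.

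CFLAR, the caspase-8 decoy also called c-FLIP, had 114 and 116 CPM in dex and 88.5 and 89.2 CPM in etoh. Within each group the libraries were nearly equal, and the groups did not overlap. The means were 115 ± 1.40 and 88.8 ± 0.482 CPM, a log2 fold change of 0.40 (SE 0.10, 95% interval 0.18 to 0.61, adjusted p = 0.012 by edgeR) or 1.32-fold. The size hardly moved when a library was left out, between 0.39 and 0.41, but the call ended without etoh replicate 1 (adjusted p = 0.062) and without etoh replicate 2 (adjusted p = 0.056). CFLAR makes a long protein with an inactive caspase-like domain and a short one without it. The 2 transcripts that encode the long form of 480 residues had 48.4 and 49.0 CPM in dex and 37.5 and 38.2 in etoh, which was 42.2% of the gene's dex reads and 42.6% of its etoh reads. The 2 that encode a short form of 221 residues had 7.94 and 12.4 CPM in dex and 7.58 and 9.09 in etoh, or 8.92% and 9.46% of the reads. These shares are of reads and are not corrected for length. CFLAR-001, of the long form, has 14672 bases, and CFLAR-003 and CFLAR-010, of the short form, have 1283 and 1198. The shares therefore do not tell which form had more RNA molecules. None of the 17 tested CFLAR transcripts passed on its own. CASP8, the protease it restrains, was at -0.12 (SE 0.13, adjusted p = 0.61 by edgeR).

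The 3 TRAF genes, which encode the adaptors of the receptor complex, gave no call. TRAF2, on chromosome 9, had 16.6 and 18.1 CPM in dex and 17.3 and 17.0 CPM in etoh, with overlapping groups and a log2 fold change of 0.04 (SE 0.15, 95% interval -0.28 to 0.35, adjusted p = 0.92 by edgeR). TRAF3, on chromosome 14 from 102777476 to 102911500, had 58.6 and 52.4 CPM in dex and 66.9 and 59.7 CPM in etoh. Both of its dex libraries lay just below both etoh libraries, and its log2 fold change of -0.17 (SE 0.12, 95% interval -0.41 to 0.07) did not pass (adjusted p = 0.41 by edgeR). TRAF1, the member of the family that lacks the ligase domain, had the lowest level of the 10, at 3.66 and 3.14 CPM in dex and 4.30 and 3.53 CPM in etoh. Its groups overlapped. With 35 to 42 reads per library, its log2 fold change of -0.18 (SE 0.28, adjusted p = 0.76 by edgeR) had a wide 95% interval of -0.76 to 0.40.

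**Figure D3:**
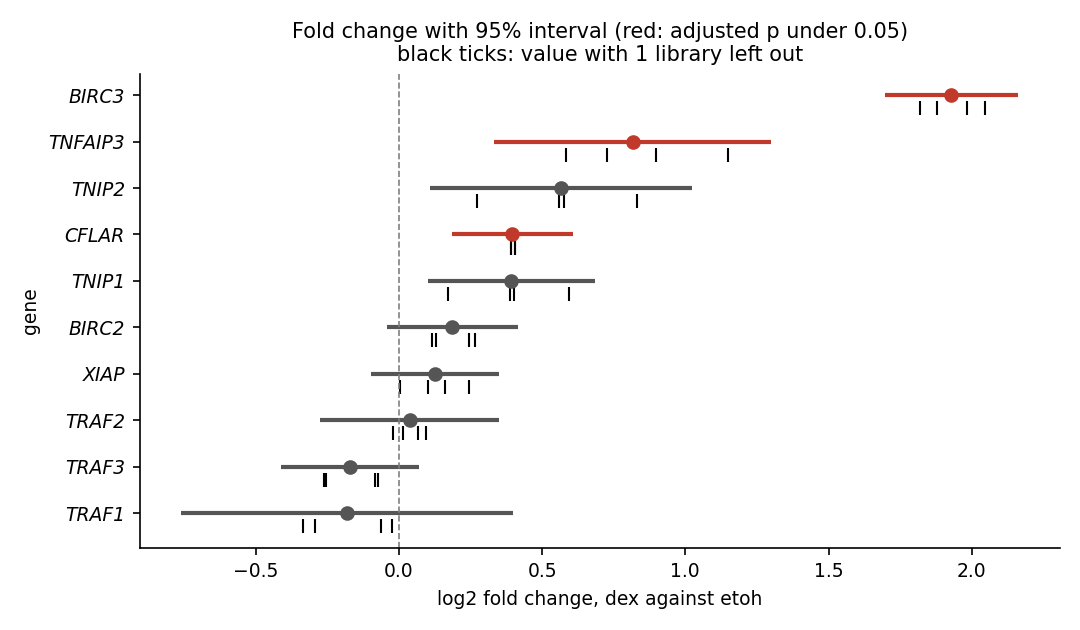
Log2 fold change of dex against etoh for each gene (point) with its 95% interval (bar), red where the adjusted p was under 0.05, and the value with 1 library left out (black ticks). BIRC3 stands apart at 1.93 with ticks from 1.82 to 2.05, and the ticks of TNFAIP3 spread from 0.58 to 1.15.

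Of 74 listed transcripts of the 10 genes, 56 had enough reads to test. Of these 4 passed, all higher, and 2 of the 4 belonged to BIRC3. Over all 49857 tested transcripts 5.64% passed, both directions counted. BIRC3-002 and BIRC3-001, which encode the same 604 residues and differ in their untranslated ends, rose alike, by 1.92 (SE 0.13) and 1.93 (SE 0.15). BIRC3-002 held 71.3% of the gene's reads in dex and 71.1% in etoh over the pooled reads of a group. In single libraries that share was 73.0% and 69.9% in dex and 77.4% and 65.2% in etoh, so the etoh libraries stood on either side of dex. The other transcripts that passed were TNFAIP3-001 and TNIP1-009, the latter with 48 dex and 20 etoh reads and a log2 fold change of 1.31 (SE 0.39, adjusted p = 0.046 by edgeR). The call of TNIP1-009 ended whichever of the 4 libraries was left out, with log2 fold changes of 1.01 to 1.60, and that of TNFAIP3-001 ended without etoh replicate 1, at 0.72. Main transcripts, those with at least 10% of a gene's reads in either group, lay between -0.14 and 0.13 for BIRC2, XIAP, TRAF2 and TRAF3. Exceptions were BIRC2-002 at 0.36 (SE 0.18) and BIRC2-003 at 0.28 (SE 0.15), and none of these passed. Those of TNIP1 lay between 0.09 and 0.61 and those of TNIP2 between 0.33 and 0.79, without a call. CFLAR-001 was at 0.37 (SE 0.12) and CFLAR-005, which encodes 250 residues, at 0.41 (SE 0.14). CFLAR-005 held 21.8% of the gene's dex and 21.5% of its etoh reads.

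The 2 tested transcripts of TRAF1 had log2 fold changes of opposite sign, -0.62 (SE 0.31) and 0.92 (SE 0.51). TRAF1-001, with the longer 5' end, had 40 dex and 64 etoh reads, and TRAF1-201 had 24 and 13, although they encode the same 416 residues. TRAF1-001 held 56.3% of the gene's reads in dex (Wilson 95% interval 44.8% to 67.3%) and 76.2% in etoh (66.1% to 84.0%). Neither transcript passed, with adjusted p of 0.31 and 0.37 by edgeR, and intervals cover counting error only. How the aligner placed reads that fit several transcripts of a gene is not given, so shares within a gene rest on that placement.

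The other genes of the pathway were read from the same test in 5 lists. Of 75 listed genes 70 were tested, and 6 rose and 7 fell, or 18.6% against 11.4% of all genes. Their median log2 fold change was -0.05. These lists, too, were chosen with earlier results of these data known. Among 16 tested genes of the receptor complex and its kinases, TRADD rose and MAP3K14, MAP3K8 and TANK fell. MAP3K14, which encodes the kinase NIK, had 30.1 ± 0.268 CPM in etoh and 15.3 ± 0.749 in dex (-0.96, SE 0.14, adjusted p = 4.1e-05 by edgeR). These values are of RNA, and the NIK protein was not measured. MAP3K8, a kinase upstream of ERK in inflammatory signalling, had 28.7 ± 2.02 CPM in etoh and 9.45 ± 0.986 in dex (-1.58, SE 0.16). TANK, an adaptor that binds TRAF proteins, went from 54.9 ± 8.07 to 29.7 ± 5.94 CPM (-0.86, SE 0.14). TRADD, the first adaptor on the TNF receptor, had 5.85 ± 0.887 CPM in etoh and 9.38 ± 1.71 in dex (0.68, SE 0.22, adjusted p = 0.045 by edgeR), a call that ended under 6 of 12 other settings. The other 12 lay between -0.52 and 0.32, and the receptor TNFRSF1A was at -0.25 (SE 0.10, adjusted p = 0.12 by edgeR).

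Of the 16 genes of ubiquitin editing around the receptor, only ZC3H12A passed, which encodes an RNase that destroys inflammatory mRNAs and works with the deubiquitinating machinery. It rose from 10.9 ± 1.49 to 33.8 ± 5.51 CPM (1.65, SE 0.16). The subunits of the linear ubiquitin ligase, RNF31, RBCK1 and SHARPIN, and the deubiquitinases CYLD and OTULIN did not pass, and the 15 genes without a call lay between -0.80 and 0.31. TNIP3, the relative of TNIP1 and TNIP2, was at -0.80 with 0.359 to 1.18 CPM in all 4 libraries and did not pass.

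Among 12 tested relatives of the members, TRAF7 rose, from 81.2 ± 12.1 to 119 ± 21.1 CPM (0.57, SE 0.13), and TRAFD1, a zinc finger protein that restrains innate signalling, fell, from 32.6 ± 3.57 to 22.3 ± 0.889 CPM (-0.54, SE 0.13). The TRAF7 call ended without dex replicate 1, at 0.38, and that of TRAFD1 without etoh replicate 2, at -0.43. With the most-read transcript alone the TRAFD1 call ended too (-0.61, adjusted p = 0.072 by edgeR). The large IAP gene BIRC6 was at -0.07 (SE 0.10), the mitotic BIRC5 at -0.09 (SE 0.11) and NAIP at -0.0047 (SE 0.17), and none passed. The 10 genes without a call lay between -0.16 and 0.57. BIRC8 had 0 reads in all 4 libraries, which is below a floor of 3 counts or 0.252 to 0.307 CPM.

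Of 16 caspases, adaptors and IAP antagonists, MLKL and SEPT4 rose. MLKL, the membrane-breaking effector of necroptosis, had 26.6 ± 2.77 CPM in etoh and 49.7 ± 2.51 in dex (0.91, SE 0.12, adjusted p = 1.2e-05 by edgeR). RIPK3, the kinase that activates it, had 0 reads in every library. SEPT4, of which 1 product antagonises XIAP, had 10 and 20 reads in dex and 6 and 3 in etoh (1.76, SE 0.56, adjusted p = 0.044 by edgeR), and lost its call without dex replicate 2 (1.29), without etoh replicate 1 (2.47) or without etoh replicate 2 (1.20). DESeq2 gave SEPT4 no adjusted p, and the gene was not tested when the most-read transcript stood for it. CASP9, a caspase that XIAP binds, was at -0.02 (SE 0.19) and the IAP antagonist DIABLO at -0.04 (SE 0.13), neither of them called. The 14 genes without a call lay between -0.60 and 0.23.

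Of 10 NF-kB subunits and inhibitors, NFKBIA rose and NFKB2, NFKBIE and REL fell. NFKBIA, which holds NF-kB in the cytoplasm, went from 66.1 ± 2.72 to 236 ± 0.0431 CPM (1.85, SE 0.10), close in size to BIRC3. NFKB2, the subunit processed downstream of NIK, went from 20.9 ± 2.38 to 10.2 ± 0.0424 CPM (-1.02, SE 0.16), and NFKBIE, another NF-kB inhibitor, from 6.41 ± 0.0902 to 3.02 ± 0.334 CPM (-1.07, SE 0.25). REL was at -0.44 (SE 0.13, adjusted p = 0.032 by edgeR), and its call ended when dex replicate 1 (-0.35) or etoh replicate 2 (-0.32) was left out. With the most-read transcript alone the REL call ended too (-0.39, adjusted p = 0.064 by edgeR). DESeq2 called neither REL nor NFKBIE. The other 6 lay between -0.34 and 0.30.

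**Figure D4:**
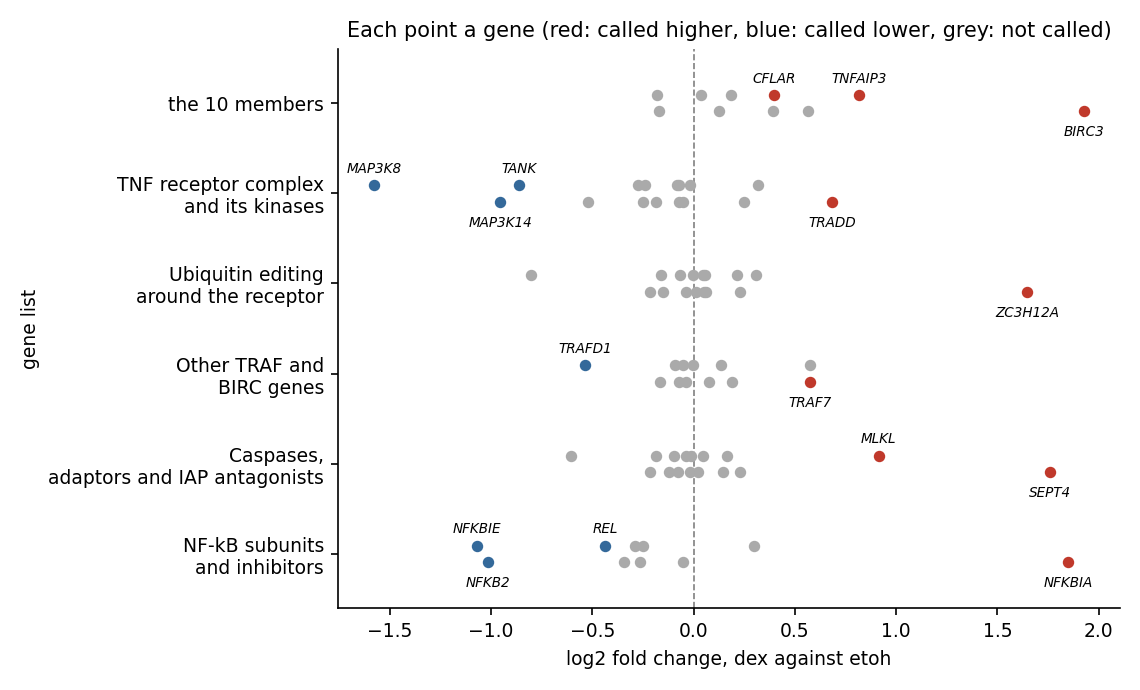
Log2 fold change of dex against etoh for the 10 genes (top row) and the tested genes of each pathway list, 1 point per gene, red where called higher, blue where called lower and grey where not called. Most points lie near 0, with BIRC3, NFKBIA, SEPT4 and ZC3H12A at the right and MAP3K8, NFKBIE, NFKB2 and MAP3K14 at the left.

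The tested genes next before and next after every member, in the order of their lowest coordinates, were read as neighbours. A gene that starts farther away but ends closer could be passed over by this rule. It gave 18 genes outside the set, of which 4 rose and 0 fell by edgeR. Of all tested genes, 6.98% rose and 4.42% fell in that test. TMEM123, 17.7 kb beyond BIRC2, was at -0.15 (SE 0.10), and the clone-named gene RP11-864G5.3, 86.5 kb before BIRC3, rose by 0.79 (SE 0.17). Beside TNFAIP3, IFNGR1, which encodes a subunit of the interferon gamma receptor and lies 648 kb away, rose by 0.77 (SE 0.11). RCOR1, next to TRAF3, rose by 0.66 (SE 0.11), and EDF1, next to TRAF2, by 0.57 (SE 0.17, adjusted p = 0.030 by edgeR).

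Sequence shared with other genes limits how reads can be assigned. Of the 36-base stretches in the most-read transcript, 0.484% for BIRC3 were also found in BIRC2 and 0.674% for BIRC2 in BIRC3, in GENCODE 29. The share was 13.4% for CFLAR, which an annotated gene overlaps on the same strand, and 10% for XIAP, which has a pseudogene copy, so the assignment of part of their reads is uncertain. It was 1.96% for TNIP2 and 0 for the other 5 genes. TNFAIP3 and CFLAR share exons with antisense genes that were counted with 7 dex and 8 etoh reads and with 24 and 16 reads, and the strand setting is not given.

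FKBP5, TSC22D3 and PER1, standard glucocorticoid-induced genes, rose by 3.38, 4.45 and 3.87 on the log2 scale (SE 0.11, 0.13 and 0.15), and the receptor gene NR3C1 was at -0.62 (SE 0.10), which passed. All 9 markers of an epithelial lung carcinoma line were present, and CDKN2A, which A549 cells have lost, had 0 reads. Summed, the 9 markers were at 11748 to 12864 CPM in dex and 8962 to 9545 CPM in etoh, with KRT8, KRT18 and KRT7 called higher, and the part of this shift in the values above was not tested. Of the leukocyte markers, CD3E was at 0 in all libraries and PTPRC had at most 1 read in any. CD68 had 4.07 and 3.86 CPM in dex and 3.69 and 3.28 in etoh, and ITGAM had 1.22 and 0.808 CPM in dex and 0.922 and 1.35 in etoh. Of 4 fibroblast markers COL1A2 was at 0 in all libraries, and COL1A1, called higher at 0.56 (SE 0.18, adjusted p = 0.045 by edgeR), made up nearly all of the sum of 16.9 to 21.6 CPM in dex and 10.5 to 15.7 in etoh. Its part in the values above was not tested. Of the endothelial markers VWF was at 0 and CDH5 had 3 to 5 reads in each library.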

How the data were processed

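The deposited files hold raw read counts for each library, listed by transcript with its length, and a row of unaligned reads (17.2% to 18.7% of reads) that was left out. CASAVA, Bowtie, SAMtools and DESeq2 were used, per the submitters' processing notes, which name no versions. Not given in the sources used here are the build, annotation release, strand setting and treatment of reads with several alignments. Samples were grouped by their labels into dex and etoh, with 2 libraries each.

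Counts of all transcripts with 1 gene identifier were summed. CPM used the aligned total as library size, and 3 counts are 0.252 to 0.307 CPM. Genes and transcripts were tested with edgeR 4.0.16 (R 4.3.3) by the two-sided quasi-likelihood test after filterByExpr (minimum count 10) and TMM scaling, with a prior count of 0.125 and Benjamini-Hochberg adjustment over all 14777 genes or 49857 transcripts, at a threshold of 0.05. The SE was the absolute log2 fold change over the square root of F. The biological coefficient of variation was 8.08%. Positions, exons and shared 36-base stretches came from GENCODE 29 (GRCh38), and promoters from RefSeq. Wilson intervals cover counting error only. No 2 libraries were duplicates, with chi-square per degree of freedom of 5.81 within dex and 7.60 within etoh.

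On data simulated from these libraries, 98% of genes with a true log2 fold change of 1 and 45% of those with 0.5 were recovered over 14542 genes. Over 48423 transcripts the shares were 92% and 14%, so a transcript without a call may still have changed by 0.5. The changed genes and transcripts were drawn from better-expressed ones, so these rates do not cover the lowest levels, such as that of TRAF1. The alternatives were the most-read transcript of each gene, DESeq2 size factors, library totals, no count filter, 1 CPM in 2 libraries, DESeq2 1.42.0, limma-voom (limma 3.58.1), the replicate number as a block, and each library left out. A group left with 1 library was taken to vary as much as the group of 2.

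Named were the 10 genes, every called gene of each pathway list up to 6, and 4 genes that check the treatment. The neighbour on each side, taken by order of lowest coordinate, was named where it was called or lay beside BIRC2. Transcripts with at least 10% of a gene's reads in either group were reported by name or as a range. The genes without a call that are named from the lists, and TNIP1-009, were chosen after their values were seen. Members and lists were chosen with earlier results of these data known. Some genes of the lists are not reported here.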

Additional observations from a re-analysis of the deposited data

How the results depend on the processing

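Of 174 recomputed values, 161 stayed on the same side of the threshold, or within 1.5 times as counts, and no called gene changed sign. As 7 of the 10 genes had no call to lose, this tally says little about the calls of TNFAIP3 and CFLAR. TRAF2, which was not called, lay between -0.02 and 0.10. BIRC3 passed under all 12 alternatives, between 1.82 and 2.05. DESeq2 called 657 genes higher and 389 lower, and put TNFAIP3 at 0.82 without a call (adjusted p = 0.15). With 1 library left out, 705 to 1159 genes were higher and 406 to 806 lower, and 1 to 4 of the 10 genes were higher and 0 lower. In the same fits TNFAIP3 lay between 0.58 and 1.15, TNIP1 between 0.17 and 0.59, TNIP2 between 0.27 and 0.83 and CFLAR between 0.39 and 0.41, and 2 to 4 transcripts of the 10 genes were called. Without etoh replicate 1 only BIRC3 of the 10 genes passed. The cause of these differences was not tested.

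The labels do not say that replicate numbers pair libraries, and deviations of same-numbered libraries from their group means had a correlation of -0.0917. With the replicate block, 974 genes were higher and 584 lower, 3 of the 10 genes were higher, BIRC3 was at 1.93 and TNFAIP3 at 0.83. TRAF1, TNIP2 and TNFAIP3 rest on the fewest reads, 35 to 111 per library, and their intervals are the widest.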
